A study of Danio rerio with 18 samples.

Results

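The comparison described here is that of palbociclib with its solvent in the livers of phenotypically normal zebrafish larvae. Its members are the 8 libraries labelled as control livers, out of 18 in the series. Of these, 4 came from larvae kept in 0.5% DMSO (replicates 1, 2, 3 and 4) and 4 from larvae given 20 µM palbociclib in 0.5% DMSO (replicates 1, 2, 4 and 5). All larvae came from crosses between uhrf1-hi272+/- adults carrying Tg(fabp10a:CAAX-EGFP), a transgene whose hepatocyte promoter puts a green fluorescent protein on the membranes of liver cells, in the strain labelled ABNYU. Treatment started at 48 hours post fertilization (hpf), and livers were dissected at 120 hpf. For a batch 15 to 20 livers were taken, each was stored alone while its carcass was genotyped, and livers of 1 genotype were then pooled, so a library is a pool of animals. The control livers are called wild type in the study's design text and control siblings in its title, and the sources used here do not say whether uhrf1-hi272+/- larvae were among them. The other 10 libraries came from uhrf1-hi272-/- mutant larvae of the same crosses under the same 2 treatments, 5 in each. They were part of the main fit, where they share in the filter on counts, the scaling and the estimate of the spread. Their own response is described only where that of the control livers is set against it. Nothing in the labels says that replicates came from separate clutches, so the p-values measure the spread between pools. For the gene tests this spread was estimated in all 18 libraries, mutant pools included.

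Palbociclib, labelled CDKI in these samples, is an inhibitor of the cyclin-dependent kinases CDK4 and CDK6. In the textbook account these kinases, bound to D-type cyclins, phosphorylate the retinoblastoma protein Rb, which then releases E2F transcription factors, and E2F switches on the genes for S phase entry and DNA replication. An inhibitor of CDK4 and CDK6 keeps Rb in its repressive form and holds cells in G1. The zebrafish liver still grows over the days of this treatment, and its hepatocytes secrete plasma proteins, make and export lipids and break down amino acids and foreign compounds.

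Total counts per control library ran from 3400255 to 5199301. Of 32105 gene IDs, 17048 had enough counts to be tested. Levels are given as CPM, the count of a gene relative to its library's total scaled by the trimmed mean of M values (TMM), in the order DMSO replicates 1, 2, 3 and 4 and then palbociclib replicates 1, 2, 4 and 5. A gene was called changed where edgeR's quasi-likelihood F test, fitted on all 18 libraries, gave a p below 0.05 after adjustment by Benjamini and Hochberg's method over the 17048 genes. Fold changes are log2 values, palbociclib minus DMSO, with their standard error. Gene symbols are spelled as in the reference name table, and a symbol that several IDs share carries the last digits of its ID, as in SQLE_079946. How reads were divided between such copies is not given in the sources used here.

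The 8 libraries held unequal shares of RNA from other tissues, on average higher under palbociclib. Genes of the muscle list (110 tested) took 4.79%, 6.46%, 4.05% and 3.79% of the counts in the DMSO libraries and 6.40%, 5.57%, 7.59% and 8.31% in the palbociclib libraries. The means were 4.77% ± 1.20 and 6.97% ± 1.22 (SD, n = 4 each), and the ranges overlapped through DMSO replicate 2 and palbociclib replicates 1 and 2 (exact permutation test, two-sided, p = 0.0857; adjusted over 19 shares 0.125). Hepatocyte genes (25 tested) took 8.66%, 7.15%, 8.91% and 9.08% under DMSO and 6.51%, 7.30%, 5.51% and 4.17% under palbociclib, or 8.45% ± 0.883 and 5.87% ± 1.35 (exact permutation p = 0.0571, adjusted 0.125, where the smallest p that 4 against 4 allows is 0.0286). The eye and lens list moved with muscle, from 0.455% to 0.774% under DMSO and from 0.668% to 1.02% under palbociclib. Its ratio to the muscle share stayed between 0.119 and 0.123 in all 8 libraries, that of the cartilage and bone list between 0.0862 and 0.0892, and that of the hepatocyte list ranged from 0.501 to 2.39. Beyond the identity of these markers, a pooled organ sample cannot tell fewer cells of a type from less RNA per cell. DMSO replicates 3 and 4 had the lowest muscle shares and palbociclib replicates 4 and 5 the highest.

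**Figure D1:**
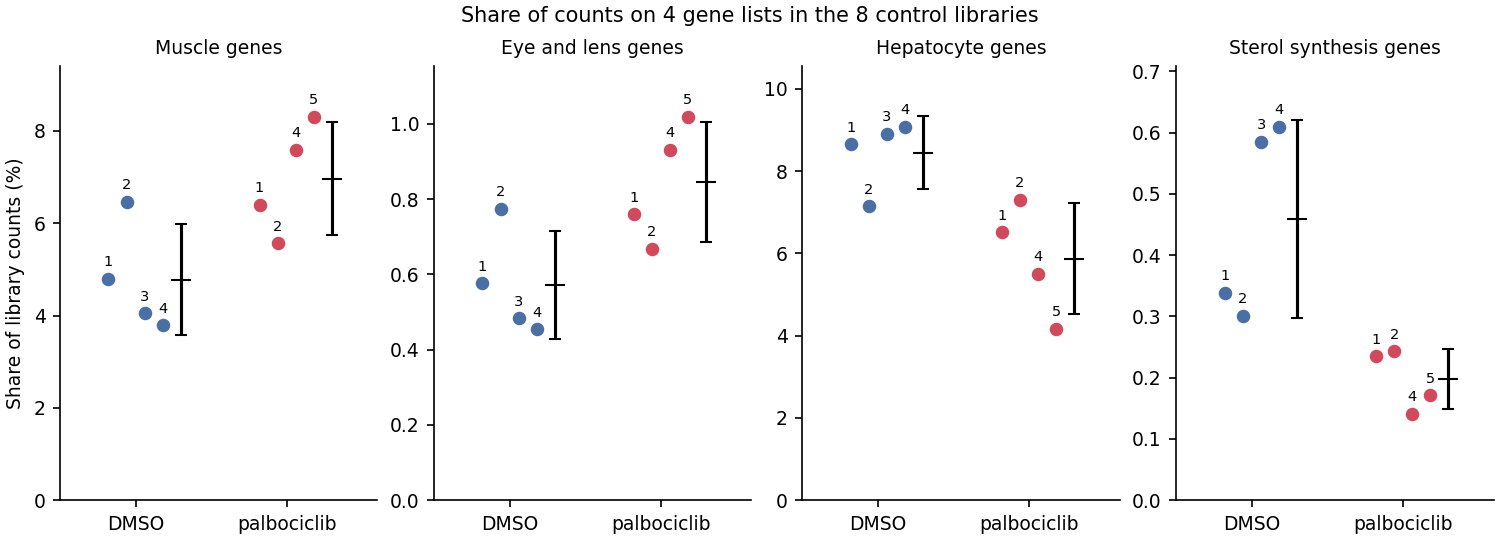
Share of all counts (percent, vertical axes) taken by the muscle, eye and lens, hepatocyte and sterol lists in each control liver library. Points are libraries labelled by replicate number and bars give the mean ± SD of 4 libraries; muscle shares ran from 3.79% to 6.46% under DMSO and from 5.57% to 8.31% under palbociclib.

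At this threshold 973 genes, 5.71% of those tested, were called, more of them lower than higher. Of these, 738 were lower under palbociclib (4.33%) and 235 higher (1.38%), with median changes of -0.87 and 0.45 on the log2 scale. A change of at least 1 on the log2 scale was reached by 256 of the lower genes and 22 of the higher genes. The libraries of the 2 groups did not overlap for 1606 genes (9.42%), 946 of them lower (5.55%) and 660 higher (3.87%). The balance of higher and lower genes rests on the scaling: with library size alone 1079 genes were higher and 393 lower, and with libraries scaled to 177 hepatocyte genes 5218 were higher (30.6%) and 105 lower (0.616%). The median of all genes was 0.23 and 0.61 on the log2 scale in these 2 scalings, against -0.02 with TMM. With the muscle share of each library as a covariate 49 genes were called (0.287%), 32 higher (0.188%) and 17 lower (0.0997%). The count also rests on single libraries: it was 311 without DMSO replicate 3, 272 without DMSO replicate 4, 338 without palbociclib replicate 4, 304 without palbociclib replicate 5 and 2019 without DMSO replicate 2. In a fit of the 8 control libraries alone 351 genes were called (2.21%), 37 higher (0.232%) and 314 lower (1.97%), and 334 of them were among the 973.

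The genes that the drug's own pathway turns on were not called in the pooled livers. None of 37 tested genes of the G1/S and E2F target list and none of 44 DNA replication genes passed edgeR's test, against 5.71% of all genes, and their median changes were -0.01 and -0.02. At an unadjusted p below 0.05 there were 1 higher and 1 lower G1/S gene and 2 higher and 2 lower replication genes, and DESeq2 and limma-voom called 0 in either list. Of all 17048 genes, 1282 were higher and 2212 lower at that unadjusted p. With hepatocyte scaling the medians of the 2 lists were 0.66 and 0.62, close to the 0.61 of all genes. In that scaling 9 of the 37 and 13 of the 44 members were called higher, where 30.6% of all genes were. CDK4, the kinase that palbociclib binds, had 40.7, 42.2, 58.0 and 47.5 CPM under DMSO and 33.5, 42.6, 38.9 and 36.7 CPM under palbociclib. These ranges overlapped, and the difference was -0.31 ± 0.16 (adjusted p = 0.249). CDK6, its partner target, stood at 9.60, 8.01, 11.9 and 10.6 CPM against 7.95, 8.84, 6.44 and 3.78 CPM, a difference of -0.57 ± 0.29 (adjusted p = 0.265).

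CCND1, the cyclin D1 that activates both kinases, read 53.1, 57.3, 65.7 and 50.1 CPM under DMSO and 70.3, 67.0, 61.2 and 60.5 CPM under palbociclib (0.19 ± 0.12, adjusted p = 0.395). RB1, the pocket protein they phosphorylate, read 13.8, 14.8, 12.7 and 8.31 CPM against 11.4, 5.68, 16.3 and 15.9 CPM (0.01 ± 0.27, adjusted p = 0.994). The groups overlapped for both genes. PCNA, the DNA polymerase clamp, had 111, 93.7, 92.8 and 89.9 CPM under DMSO and 92.4, 91.9, 99.7 and 105 CPM under palbociclib (0.01 ± 0.11, adjusted p = 0.98). The replicative helicase gene MCM2 differed by 0.15 ± 0.12 (adjusted p = 0.534). MCM3 and MCM4 of the same helicase did not overlap between the groups, with differences of 0.33 ± 0.16 and 0.26 ± 0.12, and neither was called (adjusted p = 0.222 and 0.187). For mki67, the proliferation antigen, the values were 48.9, 59.7, 44.8 and 46.5 CPM against 53.5, 53.7, 59.4 and 47.5 CPM (0.10 ± 0.13, adjusted p = 0.738).

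The S phase cyclin gene CCNE1 (-0.01 ± 0.55, adjusted p = 0.993), the mitotic kinase gene CDK1 (0.05 ± 0.39, adjusted p = 0.964) and E2F1 (-0.09 ± 0.57, adjusted p = 0.956) varied widely between libraries and gave no call. CCND2_051748, a cyclin D2 gene, differed by 0.41 ± 0.20 (adjusted p = 0.233) and RBL1, the pocket protein p107, by -0.50 ± 0.25 (adjusted p = 0.241). CDK2 and CCNE2, which form the kinase of S phase entry, stood at -0.02 ± 0.39 and -0.11 ± 0.43, and the helicase gene MCM5 at 0.01 ± 0.16, none of them called (adjusted p from 0.924 to 0.987). The largest difference named here among the replication genes was that of dbf4, the activator of the origin kinase Cdc7, at -1.02 ± 0.45 (adjusted p = 0.183). Of 46 mitosis genes 1 was called (2.17%, against 1.38% of all genes called higher), STMN1_033655, which rose by 0.37 ± 0.11 (adjusted p = 0.0341). It encodes a microtubule regulator that is also abundant in neurons, and its call is lost without DMSO replicate 3 (adjusted p = 0.163), DMSO replicate 4 or palbociclib replicates 4 or 5. The p53 target list had no call among 28 genes in edgeR, DESeq2 or limma-voom, where edgeR called 5.71% of all genes. At an unadjusted p below 0.05, where 1282 of all 17048 genes were higher and 2212 lower, 2 genes of that list were higher and 2 lower. Its member cdkn1a, which encodes the CDK inhibitor p21, had 35.8, 34.7, 62.7 and 56.1 CPM against 33.5, 45.5, 42.5 and 41.9 CPM (-0.21 ± 0.17, adjusted p = 0.516). The list's ubiquitin ligase gene mdm2 (0.03 ± 0.21, adjusted p = 0.962) and its stress gene SESN1 (0.40 ± 0.15, adjusted p = 0.114) were not called either. UHRF1, the gene mutated elsewhere in the series, stood at 40.0, 46.9, 29.1 and 35.3 CPM under DMSO and 37.8, 51.8, 47.7 and 55.9 CPM under palbociclib in these control livers (0.35 ± 0.16, adjusted p = 0.217). Tests on simulated counts of this depth recovered 14% of genes changed by 1.5-fold and 70% of genes changed by 2-fold. Only genes above a floor of counts were changed there, and unequal tissue shares were not simulated. In that setting most changes of 1.5-fold were missed, and the rate for the genes named here was not tested.

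Most genes for the synthesis of cholesterol fell. Of 32 tested members of the sterol synthesis and uptake list, 20 were called and all 20 were lower, against 4.33% of all genes. The list's median was -1.41 on the log2 scale, where that of all genes was -0.02, and 29 of the 32 members were lower in value. With hepatocyte scaling the median was -0.78, with 18 members lower and 3 higher. With the muscle covariate it was -0.43 and 1 member was called lower. Leaving out 1 library gave 9 calls (without DMSO replicate 4) to 26 (without DMSO replicate 2). The list's summed share of counts was 0.339%, 0.301%, 0.585% and 0.609% under DMSO and 0.235%, 0.243%, 0.141% and 0.172% under palbociclib.

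SQLE_079946, the squalene epoxidase, had 169, 120, 338 and 305 CPM under DMSO and 79.7, 88.7, 25.4 and 36.7 CPM under palbociclib. Every palbociclib library lay below every DMSO library, and within DMSO the livers lowest in muscle RNA, replicates 3 and 4, were the highest. The gene fell by 2.02 ± 0.40 (adjusted p = 0.0104), and with the muscle covariate the difference was -0.87 (adjusted p = 0.421). HSD17B7, a sterol ketoreductase, read 25.5, 24.5, 44.0 and 51.7 CPM against 11.4, 17.4, 7.25 and 7.83 CPM and fell by 1.75 ± 0.27 (adjusted p = 0.000161). MVK, mevalonate kinase, went from 25.3, 16.3, 28.1 and 24.4 CPM to 9.03, 9.16, 4.03 and 3.51 CPM, a fall of 1.88 ± 0.34 (adjusted p = 0.000826). Neither gene overlapped between the groups. CYP51A1, the lanosterol demethylase, read 342, 281, 649 and 638 CPM against 198, 220, 74.5 and 106 CPM and fell by 1.68 ± 0.32 (adjusted p = 0.00942).

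Other steps of the pathway fell by like amounts. SC5D, a sterol desaturase, changed by -1.89 ± 0.33 (adjusted p = 0.00404) and NSDHL by -1.24 ± 0.26 (adjusted p = 0.00667). Like those of SQLE_079946 and CYP51A1, these calls were kept whichever library was left out. The calls of MSMO1 (-2.16 ± 0.46), PMVK (-2.31 ± 0.55) and TMEM97, a sterol-regulated gene outside the list (-2.04 ± 0.50), are lost without DMSO replicates 3 or 4 or palbociclib replicates 4 or 5, where the highest adjusted p-values were 0.0709, 0.0654 and 0.0784. For ldlra, which encodes the LDL receptor that takes up cholesterol, the values were 295, 199, 303 and 342 CPM against 154, 182, 94.5 and 73.5 CPM. It fell by 1.18 ± 0.24 (adjusted p = 0.0113), and without DMSO replicate 4 its adjusted p was 0.0519.

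**Figure D2:**
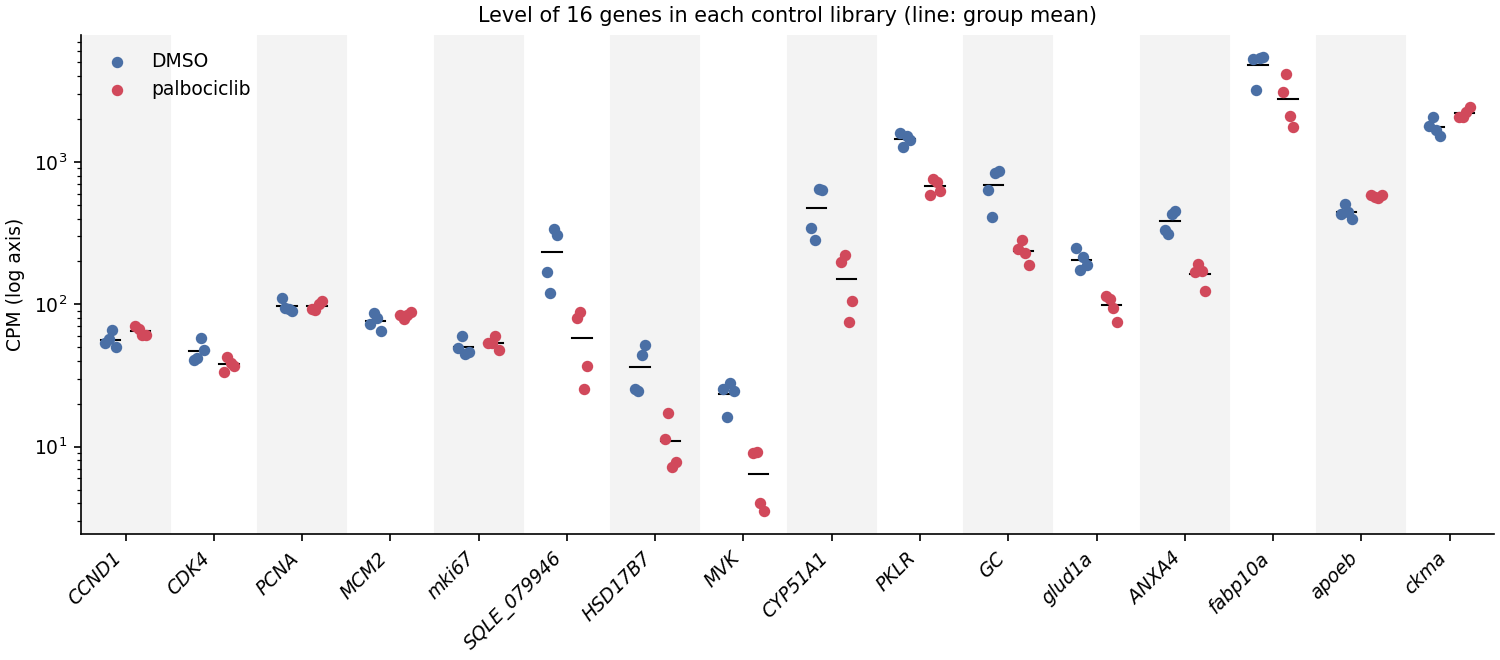
Level of 16 genes in each control liver library (TMM-scaled CPM, log axis), DMSO and palbociclib side by side, with a line at the group mean. The cell cycle genes CCND1, CDK4, PCNA, MCM2 and mki67 overlap between the groups, whereas SQLE_079946, HSD17B7, MVK, CYP51A1, PKLR, GC, glud1a and ANXA4 do not.

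Of 34 genes for fatty acid synthesis and lipid droplets, 7 were called, all lower, with a list median of -0.17 that was 0.48 with hepatocyte scaling. The number of lower calls ran from 2 without DMSO replicate 3 to 9 without DMSO replicate 2. The largest fall was in acss2l, an acetyl-CoA synthetase gene, with 120, 70.2, 293 and 280 CPM under DMSO and 34.6, 45.5, 12.7 and 13.5 CPM under palbociclib (-2.86 ± 0.54, adjusted p = 0.00836). As for SQLE_079946, DMSO replicates 3 and 4 were the highest and palbociclib replicates 4 and 5 the lowest. AACS, which activates acetoacetate for lipid synthesis, fell by 2.10 ± 0.55 (adjusted p = 0.0382), and its adjusted p was 0.132 without DMSO replicate 4. ACACB, acetyl-CoA carboxylase, had 239, 217, 326 and 352 CPM against 194, 184, 153 and 143 CPM, with no overlap (-0.75 ± 0.13, adjusted p = 0.00055). ELOVL2, a fatty acid elongase (-1.55 ± 0.33), and DGAT2, which makes triglyceride (-1.01 ± 0.22), lost their calls without DMSO replicates 3 or 4 or palbociclib replicate 4 (ELOVL2 also without palbociclib replicate 5), with adjusted p-values up to 0.0628 and 0.0645.

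The fatty acid oxidation and PPAR target list had 24 of 44 genes called, all lower, with a median of -0.49 (0.11 with hepatocyte scaling and -0.18 with the muscle covariate). The number called ran from 10 without DMSO replicate 3 to 30 without palbociclib replicate 2. ACADM, the medium-chain acyl-CoA dehydrogenase, had 520, 440, 499 and 512 CPM under DMSO and 338, 391, 289 and 271 CPM under palbociclib. No palbociclib library reached the lowest DMSO library, and the fall was 0.61 ± 0.10 (adjusted p = 0.00028). ACADVL, the very-long-chain dehydrogenase (-0.52 ± 0.10, adjusted p = 0.00138), HSD17B4 of peroxisomal oxidation (-0.57 ± 0.11, adjusted p = 0.00138), the carnitine carrier SLC25A20 (-0.62 ± 0.12, adjusted p = 0.00147) and CPT2, the inner carnitine palmitoyltransferase (-0.65 ± 0.15, adjusted p = 0.00642), fell by similar amounts. With hepatocyte scaling the values of these 4 were 0.10, 0.04, 0.01 and 0.00, none of them called.

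Secreted plasma proteins are the main product of hepatocytes. The hepatocyte list had 9 of 25 genes called and the carrier protein list, which shares members with it, 8 of 27, all lower. Their medians were -0.86 and -0.79 (-0.24 and -0.22 with hepatocyte scaling, -0.14 and -0.12 with the muscle covariate), and all 25 hepatocyte genes were lower in value. Both lists are part of the genes that set the hepatocyte scaling, so that fit draws their medians towards no change by construction. The same holds for the apolipoprotein, coagulation, complement and amino acid lists below. The hepatocyte calls ran from 5 without DMSO replicate 3 to 18 without palbociclib replicate 2, and the carrier calls from 3 to 14 without the same libraries. Several of the most abundant members were not called. For example, fabp10a, the liver fatty acid-binding protein, had 5268, 3213, 5334 and 5419 CPM under DMSO and 3078, 4160, 2104 and 1747 CPM under palbociclib, which overlap (-0.79 ± 0.24, adjusted p = 0.0731). The transferrin gene tfa differed by -0.75 ± 0.30 (adjusted p = 0.161), and the thyroid hormone carrier TTR by -0.98 ± 0.31 (adjusted p = 0.0755).

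GC, the gene for the vitamin D-binding protein, had 637, 410, 835 and 870 CPM under DMSO and 245, 285, 228 and 188 CPM under palbociclib. The groups did not overlap, and GC fell by 1.54 ± 0.21 (adjusted p = 0.00115). It remained called with the muscle covariate at -0.84 (adjusted p = 8.98e-08). The fetuin gene ahsg1, whose product binds calcium phosphate, read 148, 106, 123 and 136 CPM against 60.0, 77.4, 63.8 and 41.0 CPM and fell by 1.08 ± 0.16 (adjusted p = 7.57e-05; with the covariate -0.72, adjusted p = 0.0399, but 0.0873 with the covariate in the 8 control libraries alone). A carboxylesterase gene, ces3, went from 234, 166, 248 and 252 CPM to 63.6, 78.6, 50.8 and 27.3 CPM, a fall of 2.03 ± 0.23 (adjusted p = 0.000193; with the covariate -1.41, adjusted p = 1.92e-08, but 0.111 with the covariate in the 8 control libraries alone). For both genes every palbociclib library lay under every DMSO library. The calls of fetub (-0.86 ± 0.18) and of RBP4, the retinol carrier (-0.99 ± 0.22), are lost without DMSO replicates 3 or 4 or palbociclib replicates 4 or 5, with adjusted p-values up to 0.0649 and 0.0756.

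Of 29 genes for apolipoproteins and lipoprotein assembly, 4 were called higher and 3 lower, with a median of -0.55 (0.08 with hepatocyte scaling, 0.04 with the covariate). Lower calls ran from 2 without DMSO replicate 3 to 12 without DMSO replicate 2, and higher calls from 2 to 6 without the same libraries. DESeq2 called 16 of the 29. A copy of the apolipoprotein B gene, apobb.2, had 343, 179, 237 and 248 CPM under DMSO and 43.0, 48.0, 68.5 and 16.2 CPM under palbociclib. It fell by 2.51 ± 0.39 (adjusted p = 0.00231), and with the covariate its estimate was -2.22 but was not called (adjusted p = 0.122). CETP, the cholesteryl ester transfer protein, read 92.2, 71.9, 112 and 126 CPM against 40.4, 53.1, 46.9 and 23.8 CPM (-1.29 ± 0.21, adjusted p = 0.00124). In the other direction apoeb, an apolipoprotein E gene that in zebrafish is also expressed outside the liver, had 428, 503, 444 and 399 CPM against 590, 569, 558 and 586 CPM. It rose by 0.38 ± 0.08 (adjusted p = 0.0038) with no overlap, and with the muscle covariate the difference was 0.24 (adjusted p = 0.266). The other apolipoprotein A1 copies pointed both ways, with apoa1a higher by 0.37 ± 0.09 (adjusted p = 0.00823) and apoa1b at -0.71 ± 0.25 without a call (adjusted p = 0.109). The cholesterol exporter gene abca1b rose by 0.40 ± 0.10 (adjusted p = 0.0156), a call lost without DMSO replicates 3 or 4 or palbociclib replicate 4 (adjusted p up to 0.0668).

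Some blood clotting and complement genes were called lower. Of 26 coagulation genes 6 were called, all lower (median -0.77; -0.20 with hepatocyte scaling and 0.19 with the covariate), and the number ran from 2 without DMSO replicate 4 to 10 without DMSO replicate 2. F7_075827, a copy of the factor VII gene, had 74.9, 45.9, 59.2 and 56.6 CPM against 29.2, 34.7, 27.0 and 28.1 CPM with no overlap (adjusted p = 0.000281). F10, factor X, fell by 0.74 ± 0.16 (adjusted p = 0.0103), and its adjusted p was 0.0523 without DMSO replicate 4. Of 28 complement genes 5 were called lower and 1, c7b of the membrane attack complex, higher (median -0.66; -0.06 with hepatocyte scaling and 0.19 with the covariate), with 1 lower call left without DMSO replicate 4. MASP1, a protease of the lectin pathway, was at least 32.3 CPM in every DMSO library and stood at 21.5, 16.7, 10.5 and 15.1 CPM under palbociclib (-1.48 ± 0.23, adjusted p = 0.000161). Its relative MASP2 fell by 1.29 ± 0.27 (adjusted p = 0.0129; 0.0545 without DMSO replicate 4), and c3b.1, a C3 gene, by 0.98 ± 0.22 (adjusted p = 0.0202; up to 0.0767 without DMSO replicates 3 or 4 or palbociclib replicates 4 or 5). The haptoglobin gene hp had 4 counts in all under DMSO and 43 under palbociclib. Its call as higher (adjusted p = 0.0108) is lost without palbociclib replicate 5 (adjusted p = 0.149), the library with 7.02 CPM against 1.07, 1.89 and 1.21 CPM in the other palbociclib libraries.

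The smallest adjusted p of all 17048 genes belonged to PKLR, the liver form of pyruvate kinase and the last step of glycolysis. It had 1600, 1271, 1516 and 1426 CPM under DMSO and 587, 754, 727 and 621 CPM under palbociclib. The gap between the groups was wider than the spread within either, and PKLR fell by 1.11 ± 0.09 (adjusted p = 7.94e-12). The value with the muscle covariate was -0.99 (adjusted p = 4.82e-08), and leaving out any 1 library kept the adjusted p at or below 8.24e-10. With hepatocyte scaling it was -0.47 and PKLR was not called (adjusted p = 0.0545). SLC2A2, the glucose transporter GLUT2, read 233, 187, 251 and 275 CPM against 132, 146, 89.2 and 81.0 CPM and fell by 1.08 ± 0.15 (adjusted p = 7.04e-05; with the covariate -0.60, adjusted p = 0.00729, but 0.0591 with the covariate in the 8 control libraries alone). PFKL_099755, a liver phosphofructokinase, had 146, 111, 158 and 179 CPM against 84.5, 83.4, 81.0 and 82.4 CPM, a fall of 0.84 ± 0.14 (adjusted p = 0.000311). The palbociclib libraries of PFKL_099755 were nearly level, while DMSO replicate 2, the DMSO library highest in muscle RNA, was the lowest of its group. With the muscle covariate PFKL_099755 was not called. In all, 6 of 49 glycolysis and gluconeogenesis genes were called lower and 4 higher (median -0.10; 0.48 with hepatocyte scaling). Without DMSO replicate 3 there were 3 lower and 0 higher calls, and without DMSO replicate 2 there were 14 and 9. The higher ones included PKM_099860, a pyruvate kinase of muscle (0.41 ± 0.10, adjusted p = 0.0115), and ENO1_022456, an enolase (0.36 ± 0.09, adjusted p = 0.0156), whose calls are lost without DMSO replicate 3 or palbociclib replicate 5 (PKM_099860 also without palbociclib replicate 4 and ENO1_022456 without DMSO replicate 4), with adjusted p up to 0.0725 and 0.0937. GYS2, liver glycogen synthase (-1.08 ± 0.23), and PC_098766, pyruvate carboxylase (-0.86 ± 0.18), lost theirs without DMSO replicates 3 or 4 or palbociclib replicate 4 (GYS2 also without palbociclib replicate 5), with adjusted p up to 0.0694 and 0.0634.

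In amino acid and one-carbon metabolism 15 of 64 genes were called lower and 1 higher (median -0.45; 0.13 with hepatocyte scaling and -0.06 with the covariate). Lower calls ran from 6 without DMSO replicate 3 to 29 without DMSO replicate 2. The glutamate dehydrogenase gene glud1a, which feeds glutamate into the citric acid cycle, had 247, 175, 214 and 189 CPM under DMSO and 113, 109, 94.5 and 75.6 CPM under palbociclib, with no overlap. It fell by 1.07 ± 0.12 (adjusted p = 2.6e-07), and by 0.89 with the muscle covariate (adjusted p = 3.53e-05). SHMT2, the mitochondrial serine hydroxymethyltransferase, read 117, 128, 155 and 140 CPM against 87.2, 92.5, 93.7 and 64.3 CPM (-0.68 ± 0.13, adjusted p = 0.00171). GLDC of the glycine cleavage system fell by 0.55 ± 0.11 (adjusted p = 0.00283), a value that was 0.11 and not called with hepatocyte scaling. CBS, which makes cystathionine, fell by 0.88 ± 0.19 (adjusted p = 0.0089), although its libraries overlapped.

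Some enzymes that handle foreign compounds were called lower. Of 50 genes in the cytochrome P450 and aryl hydrocarbon receptor list 9 were called, all lower (median -0.43), and of 47 conjugation enzymes and transporters 10, all lower (median -0.48). With hepatocyte scaling these medians were 0.18 and 0.17. The P450 calls ran from 2 without DMSO replicate 3 to 19 without DMSO replicate 2, and the conjugation calls from 3 without DMSO replicate 4 to 18 without DMSO replicate 2. CYP1A1, the sentinel target of the aryl hydrocarbon receptor, read 2184, 1456, 3839 and 4120 CPM against 2940, 3872, 2496 and 2408 CPM (0.01 ± 0.26, adjusted p = 0.983). Its DMSO libraries spread more widely than its palbociclib libraries. The P450 gene cyp2ad2 had 210, 175, 525 and 591 CPM against 126, 140, 106 and 92.9 CPM and fell by 1.69 ± 0.33 (adjusted p = 0.0094). The gene cyp2p8 fell by 0.93 ± 0.18 (adjusted p = 0.00392) with no overlap. NR1I2, the pregnane X receptor that induces such enzymes, fell by 1.04 ± 0.25 (adjusted p = 0.0183), a call lost without DMSO replicates 3 or 4 or palbociclib replicates 4 or 5 (adjusted p up to 0.0764). Among conjugation enzymes the glutathione S-transferase gene gstr read 239, 217, 336 and 360 CPM against 182, 178, 174 and 173 CPM (-0.70 ± 0.11, adjusted p = 0.000212). The palbociclib libraries of gstr, like those of PFKL_099755, lay close together, and gstr was not called with the muscle covariate either. The sulfotransferase gene sult1st6 had 63.9, 38.8, 71.4 and 83.6 CPM against 26.0, 31.6, 30.4 and 28.9 CPM (-1.14 ± 0.19, adjusted p = 0.000237). The drug efflux pump gene abcg2a fell by 0.68 ± 0.13 (adjusted p = 0.00292), although its libraries overlapped. Among 25 bile acid and oxysterol genes 4 were called, all lower (median -0.55; 0.14 with hepatocyte scaling), with 1 call without DMSO replicate 4 and 9 without DMSO replicate 2. HSD3B7, an early enzyme of bile acid synthesis, was one of them at -0.80 ± 0.13 (adjusted p = 0.000212).

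Some regulators of liver identity and growth were called lower. Of 43 liver transcription factor genes 10 were called, all lower (median -0.53; 0.13 with hepatocyte scaling and -0.09 with the covariate), with 1 call left without palbociclib replicate 5 and 20 called without DMSO replicate 2. NR5A2, the nuclear receptor LRH-1 that drives bile acid and lipid genes, had 73.7, 39.1, 92.0 and 116 CPM under DMSO and 35.5, 42.3, 29.8 and 26.7 CPM under palbociclib. The groups overlapped through DMSO replicate 2, and the gene fell by 1.26 ± 0.23 (adjusted p = 0.00231). HNF4A, a master regulator of hepatocytes, was not called (-0.70 ± 0.29, adjusted p = 0.174). PROX1 (-1.01 ± 0.22, adjusted p = 0.0109) and RXRA_057737, the partner of many nuclear receptors (-0.76 ± 0.18, adjusted p = 0.0073), were called, but not without palbociclib replicate 5 (adjusted p = 0.0554 and 0.0635). The forkhead factor foxa3 fell by 1.19 ± 0.31 (adjusted p = 0.0218; up to 0.106 without DMSO replicates 3 or 4 or palbociclib replicates 4 or 5).

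Of 42 genes of the growth hormone, insulin and IGF axis 9 were called, all lower (median -0.27; 0.37 with hepatocyte scaling), with 2 lower calls without DMSO replicate 3 and 14 without DMSO replicate 2. The signal transducer stat5a, which carries the growth hormone signal into the nucleus, read 80.8, 56.8, 86.8 and 74.5 CPM against 45.8, 42.9, 26.8 and 25.9 CPM and fell by 1.08 ± 0.18 (adjusted p = 0.00028). No palbociclib library reached the DMSO range. The growth hormone receptor gene ghrb (-0.97 ± 0.26, adjusted p = 0.0211) and the growth factor genes igf2a (-1.83 ± 0.44, adjusted p = 0.0262) and igf2b (-1.14 ± 0.25, adjusted p = 0.0159) were lower too. Their calls are lost without DMSO replicates 3 or 4 or palbociclib replicates 4 or 5 (igf2a also without palbociclib replicate 1), with adjusted p up to 0.115, 0.106 and 0.0668.

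**Figure D3:**
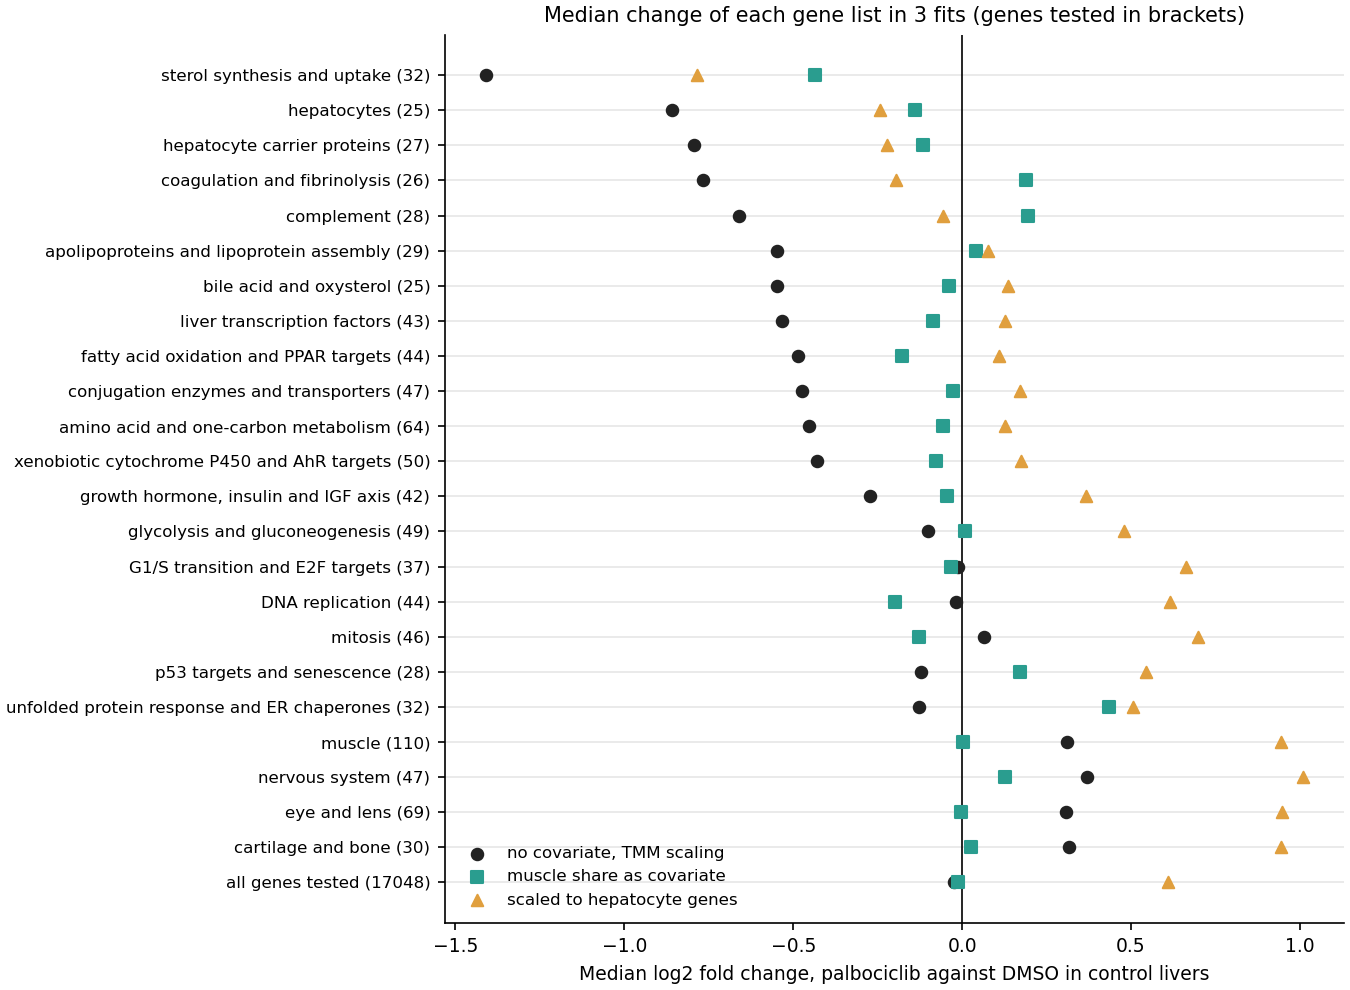
Median log2 fold change (palbociclib minus DMSO, control livers) of 23 gene lists and of all tested genes in 3 fits: TMM scaling, TMM with the muscle share as covariate, and scaling to hepatocyte genes. The sterol list is lowest in all 3 (-1.41, -0.43 and -0.78 in that order). Most other liver lists that lie below 0 with TMM, such as fatty acid oxidation (-0.49), lie above 0 with hepatocyte scaling (0.11). In that scaling the median of all genes is 0.61.

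The mean shares of hepatocyte and muscle genes differed in opposite directions between the groups, so each gene was also tested with the muscle share of the library as a covariate. Of the 973 calls, 940 kept their sign, while the median of the lower genes went from -0.87 to -0.35 and that of the higher genes from 0.45 to 0.18. The muscle share differs between the treatments, so the covariate takes up part of the treatment difference, and the 2 cannot be told apart fully with 8 libraries. Called in both fits were 21 genes, 17 lower and 4 higher, which are 2.16% of the calls without the covariate and 42.9% of those with it. PKLR, glud1a, GC, ces3, ahsg1 and SLC2A2, described above, are among them. In the 8 control libraries alone 11 of the 21 were called with the covariate, 9 were not and 1 was not tested. PKLR, glud1a and GC are among the 11, with nr5a5, ANXA4, XDH, RGN, MAP3K10, ITPR1_014655, FAT3_087709 and lonrf4, while ces3, ahsg1, SLC2A2, A1CF, SAT1_035652, DNAH5 and tdh are among the 9. With hepatocyte scaling PKLR, glud1a, ITPR1_014655, ahsg1, RGN and SAT1_035652 were not called (adjusted p from 0.0545 to 0.406).

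The nuclear receptor gene nr5a5, a relative of NR5A2, had 79.1, 74.5, 89.8 and 81.6 CPM under DMSO and 29.2, 29.7, 26.4 and 18.1 CPM under palbociclib. It fell by 1.65 ± 0.17 (adjusted p = 1.14e-08), and with the covariate by 1.30 (adjusted p = 9.02e-06). ANXA4, a calcium-binding annexin, read 335, 314, 433 and 451 CPM against 169, 192, 172 and 123 CPM and fell by 1.22 ± 0.12 (adjusted p = 3.96e-08; with the covariate -0.82, adjusted p = 1.28e-07). Neither gene came near an overlap between the groups. XDH, which makes uric acid, had 442, 322, 479 and 551 CPM against 207, 227, 141 and 143 CPM (-1.32 ± 0.23 without and -0.62 with the covariate, adjusted p = 0.00536 and 0.00192). A1CF, an RNA-binding partner in apolipoprotein B mRNA editing in mammals, fell by 1.13 ± 0.20 (with the covariate -0.52, adjusted p = 0.00707), and RGN, regucalcin, by 1.02 ± 0.15 (with the covariate -0.83, adjusted p = 0.0103). SAT1_035652, which acetylates spermidine for its breakdown, fell by 0.81 ± 0.13 (with the covariate -0.59, adjusted p = 0.0394).

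Some of the 21 are not liver secretion or metabolism genes. MAP3K10, a kinase upstream of JNK, had 17.6, 17.7, 13.2 and 15.3 CPM under DMSO and 5.59, 4.42, 5.44 and 6.21 CPM under palbociclib, and its estimate was -1.55 ± 0.29 without the covariate and -1.78 with it (adjusted p = 0.00126 and 0.0141). ITPR1_014655, a calcium release channel of the endoplasmic reticulum, read 64.8, 53.7, 55.0 and 54.5 CPM against 20.2, 23.4, 34.0 and 16.5 CPM (-1.27 ± 0.21 and -1.31). For these genes the covariate did not lessen the estimate. FAT3_087709, a giant cadherin, fell by 1.68 ± 0.21 (with the covariate -1.22, adjusted p = 0.002), and lonrf4 by 1.23 ± 0.16 (with the covariate -0.70, adjusted p = 0.00379). DNAH5, an axonemal dynein of motile cilia, was higher, with 2.81, 3.88, 2.49 and 3.38 CPM under DMSO and 29.7, 35.4, 9.06 and 4.86 CPM under palbociclib. Its high libraries were palbociclib replicates 1 and 2, and it rose by 2.63 ± 0.48 (adjusted p = 0.00175; with the covariate 3.28, adjusted p = 0.000375). In the 8 control libraries alone DNAH5 was not called, with an adjusted p of 0.0794 without the covariate and 0.203 with it. The threonine dehydrogenase gene tdh read 235, 234, 214 and 206 CPM against 329, 346, 255 and 228 CPM, again highest in palbociclib replicates 1 and 2. It rose by 0.38 ± 0.11 (adjusted p = 0.0273), a call lost without DMSO replicates 3 or 4 or palbociclib replicates 1 or 2 (adjusted p up to 0.113).

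**Figure D4:**
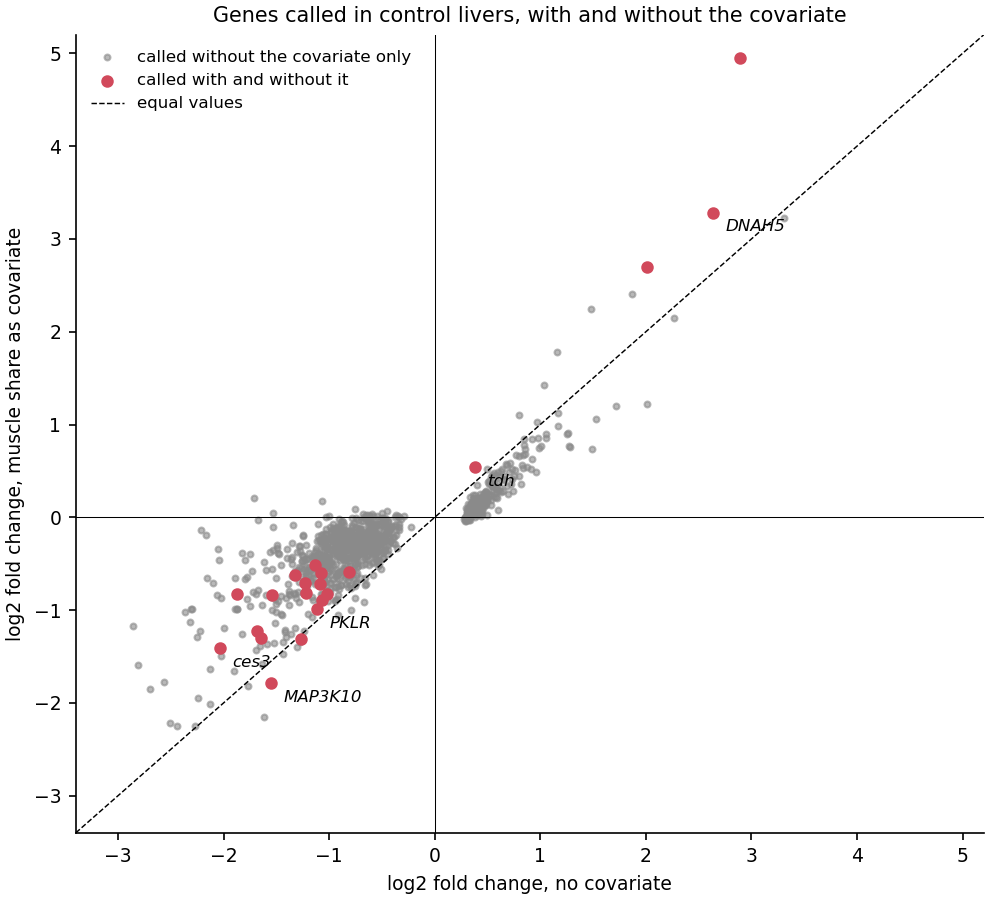
Log2 fold change of the 973 called genes without (horizontal) and with (vertical) the muscle share of each library as covariate; the dashed line marks equal values. The 21 genes called in both fits are in red, and the medians of the lower genes are -0.87 without and -0.35 with the covariate.

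Part of the genes that were higher under palbociclib are on lists of other tissues. Of the 235 higher genes, 80 (34.0%) belonged to the lists of muscle, skin, nervous system, eye, cartilage, intestine, exocrine pancreas and kidney, 37 of them to muscle, and the others to none of these. These lists hold 394 of the tested genes (2.31%). In the muscle list 37 of 110 genes were called, all higher, against 1.38% of all genes (median 0.31, 0.00 with the muscle covariate), and the count ran from 3 without DMSO replicate 4 to 54 without DMSO replicate 2. The covariate is made from this list, so its median in that fit is held near no change by construction. The muscle creatine kinase gene ckma read 1795, 2055, 1684 and 1518 CPM against 2073, 2075, 2232 and 2443 CPM. It rose by 0.32 ± 0.08 (adjusted p = 0.0109), a call lost without palbociclib replicate 5 (adjusted p = 0.0778) or DMSO replicate 4. The parvalbumin gene pvalb1 (0.33 ± 0.08) and the myosin gene myhz1.2 (0.32), which lies among near-identical copies whose reads may be split, lost their calls without the same libraries. TMOD4, a muscle tropomodulin, had 81.5, 80.6, 79.6 and 63.9 CPM against 113, 108, 101 and 119 CPM and rose by 0.53 ± 0.11 (adjusted p = 0.00324), with an adjusted p of at most 0.0339 whichever library was left out.

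Some markers of eye, nerve, cartilage and skin were also called higher. The eye and lens list had 10 of 69 genes higher (median 0.31; -0.00 with the covariate), the nervous system list 12 of 47 (0.37; 0.13), the cartilage and bone list 8 of 30 (0.32; 0.03) and the skin list 7 of 40 (0.29), with none called lower in any of these. These counts were as low as 2 without DMSO replicate 4 (eye), 0 without palbociclib replicate 5 (nervous system, cartilage) and 0 without DMSO replicate 3 (skin), and without DMSO replicate 2 they were 32, 21, 14 and 17. The lens crystallin gene cryba1b read 293, 308, 260 and 255 CPM against 363, 333, 382 and 438 CPM (0.44 ± 0.09, adjusted p = 0.0038), without overlap. Also higher were the neuronal RNA-binding gene ELAVL4 (0.47 ± 0.11, adjusted p = 0.0118), the cartilage collagen gene COL2A1_069093 (0.35 ± 0.08, adjusted p = 0.00642), matrilin gene MATN1 (0.39 ± 0.10, adjusted p = 0.0137) and the keratin gene krt5 (0.31 ± 0.09, adjusted p = 0.0402). Their adjusted p-values reached 0.0781, 0.0539, 0.0681 and 0.178 when DMSO replicates 3 or 4 or palbociclib replicates 4 or 5 were left out, and krt5 was at -0.03 with the muscle covariate. How much of these changes comes from the tissue taken along at dissection was not tested.

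The largest increases were mostly in genes outside those lists; anxa1b is on the skin list. After DNAH5 they were cacna1eb, rph3aa, anxa1b, GABRA6_075058, TBX1, CCDC92, rnf144b, fam169ab and kcnb2a, with changes from 1.05 (fam169ab and kcnb2a) to 1.87 (cacna1eb). CCDC92 had 7.26, 7.77, 8.46 and 7.53 CPM against 22.6, 13.3, 19.7 and 13.5 CPM and rose by 1.16 ± 0.25 (adjusted p = 0.00451), a call kept whichever library was left out (adjusted p at most 0.0287). The calls of the other 8 genes after DNAH5 are lost without at least 1 library; cacna1eb has an adjusted p of 0.139 without DMSO replicate 3, rph3aa 0.167 without DMSO replicate 4, and rnf144b 0.139 without palbociclib replicate 5. Among the 10 largest decreases were those of acss2l, apobb.2, PMVK, MSMO1, AACS, cbln9, TMEM97, ces3 and SQLE_079946. PMVK, MSMO1 and SQLE_079946 are in the sterol list and acss2l in that of fatty acid synthesis. The cerebellin-like gene cbln9 had 13.6, 9.47, 33.6 and 38.4 CPM against 8.38, 8.21, 3.63 and 2.70 CPM (-2.05 ± 0.41, adjusted p = 0.0038; with the covariate -0.34, adjusted p = 0.929).

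Stress and immune programs gave few calls. Of all genes 5.71% were called, and at that share short lists such as these hold few calls in any case. None of 23 DNA damage checkpoint genes, 32 genes of the unfolded protein response, 31 interferon response genes, 25 NF-kB and inflammation genes, 53 ribosome assembly genes or 28 leukocyte genes was called by edgeR. Of these, DESeq2 called 1 NF-kB gene and 2 leukocyte genes and limma-voom 1 interferon gene. At an unadjusted p below 0.05 the counts of higher and lower genes were 1 and 0, 0 and 4, 0 and 3, 5 and 0, 1 and 3, and 4 and 0. Of all 17048 genes, 1282 were higher and 2212 lower at that p. In the 8 control libraries alone only 13 of the interferon, 17 of the NF-kB and 20 of the leukocyte genes passed the count filter. The others passed it only with the mutant libraries included, so for them the lack of a call says little. The leukocyte list took 0.0116% to 0.0165% of counts under DMSO and 0.0172% to 0.0216% under palbociclib (exact permutation p = 0.0286, adjusted 0.125). The integrated stress response list had 1 of 37 genes higher and 1 lower (2.70% each, against 1.38% and 4.33% of all genes). The higher one was SLC3A2, a subunit of cell surface amino acid transporters, at 0.49 ± 0.12 (adjusted p = 0.0113; up to 0.0573 without palbociclib replicate 4 or DMSO replicate 3). Lower calls were made for apoptosis in 1 of 26 genes (3.85%), heat shock in 2 of 29 (6.90%) and oxidative phosphorylation in 1 of 73 (1.37%). These shares lie near or below the 4.33% of all genes called lower. With the muscle covariate 4 genes of the unfolded protein response list were called higher and its median was 0.43, against -0.13 without it. CANX, the chaperone calnexin of that list, differed by -0.32 ± 0.12 without the covariate and was not called (adjusted p = 0.124). The interferon list had a median of -0.49 without a call in edgeR. With the muscle covariate its median was 0.65, and over the 13 members tested in the 8 control libraries alone it was -0.17. Among other liver cell types, 2 of 32 endothelial genes were called, both lower (median -0.27). That is 6.25%, near the 4.33% of all genes called lower, and the list had 0 lower calls without palbociclib replicate 5. TIE1, an endothelial receptor kinase, read 29.0, 35.2, 33.6 and 41.8 CPM against 23.6, 20.2, 17.1 and 11.3 CPM and fell by 0.94 ± 0.22 (adjusted p = 0.00923; up to 0.068 without palbociclib replicate 5 or DMSO replicate 4). KDR, a VEGF receptor, fell by 0.99 ± 0.26 (adjusted p = 0.0179; up to 0.139 without DMSO replicate 3 or palbociclib replicates 4 or 5). In the stellate cell and fibroblast list 7 of 41 genes were called higher (17.1%) and 1 lower (2.44%), against 1.38% and 4.33% of all genes. The list's median was 0.26, and 0.02 with the muscle covariate, where no member was called. In the fit without the covariate its higher calls ran from 0 without DMSO replicate 3 to 15 without DMSO replicate 2. The lower one was COLEC11, a collectin of the lectin pathway, at -1.82 ± 0.44 (adjusted p = 0.011). Its adjusted p was up to 0.0682 without palbociclib replicates 4 or 5 or DMSO replicate 4.

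The response of control livers differed from that of the mutant livers for 340 genes (1.99%), in a test of the difference of the 2 effects in the same fit, and 297 of these were more negative in the controls. In mutant livers palbociclib changed 92 genes (0.54%), 7 higher and 85 lower. Muscle shares there were 7.27% ± 0.998 under DMSO and 7.65% ± 0.561 under palbociclib (SD, n = 5 each), and hepatocyte shares 3.89% ± 0.604 and 5.31% ± 0.708. With the muscle covariate 195 genes differed between the genotypes.

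In mutants the medians of the hepatocyte and carrier lists were 0.45 and 0.52, against -0.86 and -0.79 in controls, and 8 of 25 and 9 of 27 genes were called different. PKLR, which fell by 1.11 in controls, rose by 0.41 in mutants (adjusted p = 0.00376), a difference of -1.52 (adjusted p = 3.57e-12). The fetuin gene ahsg1 rose by 0.76 in mutants (adjusted p = 0.0128; difference -1.84, adjusted p = 5.32e-06), and F7_075827 by 0.82 (adjusted p = 0.00722; difference -1.81, adjusted p = 7.8e-06). For glud1a (difference -1.25, adjusted p = 9.84e-06), nr5a5 (-1.61, adjusted p = 2.24e-05), ANXA4 (-1.12, adjusted p = 7.29e-05) and ces3 (-3.08, adjusted p = 7.94e-05) the effects also differed. Of 44 fatty acid oxidation genes 17 differed, with a median effect of 0.11 in mutants.

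None of the 32 sterol genes was called different between the genotypes by edgeR, with medians of -1.41 in controls and -0.18 in mutants. At an unadjusted p below 0.05, 20 of them were more negative in the controls, as were 1501 of all 17048 genes. DESeq2 called 8 of the 32 sterol genes and limma-voom 0. The adjusted p of the difference was 0.106 for SQLE_079946, 0.142 for CYP51A1 and 0.0594 for HSD17B7. In the muscle list edgeR, DESeq2 and limma-voom called 0 genes different, and the medians were 0.31 and 0.09. At an unadjusted p below 0.05, 26 of its genes differed, all more positive in the controls. Of all 17048 genes, 772 were more positive at that p.

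**Figure D5:**
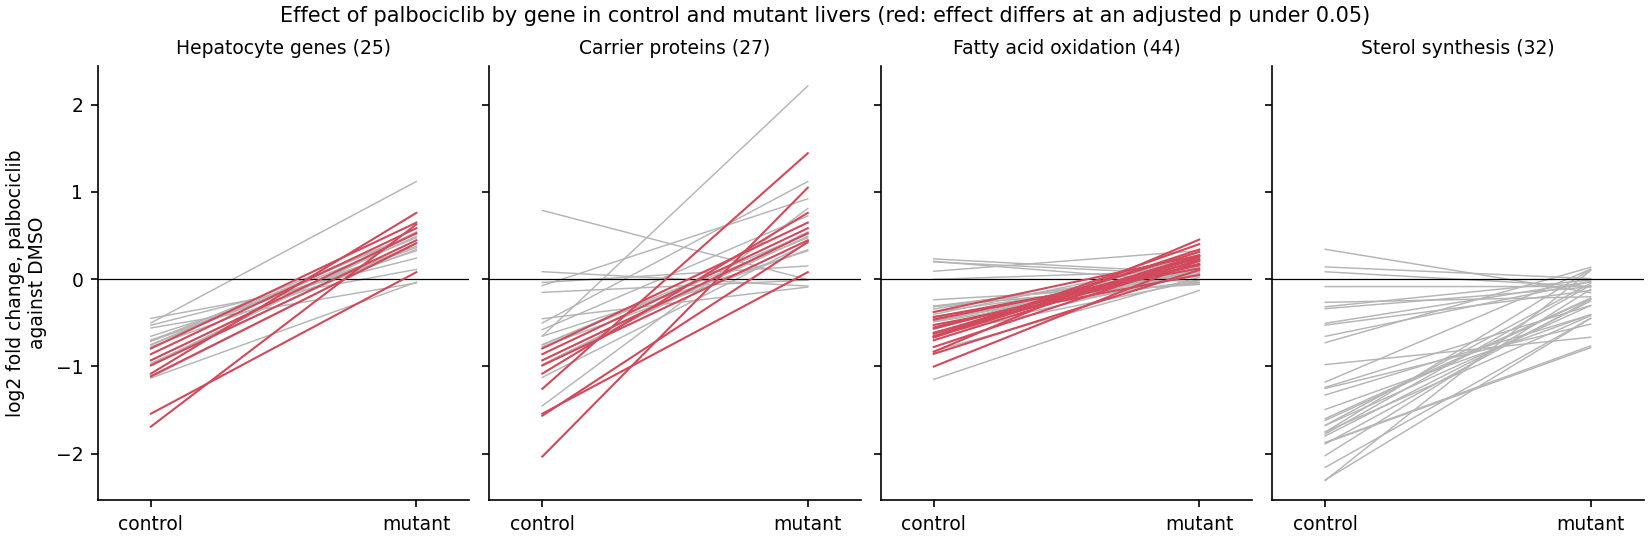
Palbociclib effect (log2 fold change against DMSO) in control and in mutant livers for the hepatocyte, carrier protein, fatty acid oxidation and sterol lists, with 1 line per gene. Red lines are genes whose effects differed between the genotypes at an adjusted p below 0.05, which are 8 of 25, 9 of 27, 17 of 44 and 0 of 32 genes.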

How the data were processed

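RNA of pooled zebrafish livers was sequenced after ribosomal RNA removal (Ribo-Zero). The authors deposited raw read counts per gene for each library. Per the submitters' processing notes reads passed FastQC 0.11.5 and Trimmomatic 0.36. Not given in the sources used here: aligner, counter, strand setting, build and annotation. Overlapping and near-identical genes therefore could not be told apart. The reference name table gave a symbol for 26269 of the 32105 IDs, and 4144 IDs shared one. Low counts were removed by filterByExpr, leaving 17048 genes with 99.6% of counts, and libraries were scaled with TMM factors (0.762 to 1.16). A quasi-likelihood model with 1 mean for each of the 4 groups was fitted to the 18 libraries (R 4.3.3, edgeR 4.0.16, limma 3.58.1, biological coefficient of variation 0.218). The standard error is the log2 fold change divided by the square root of F. Levels are TMM-scaled CPM. Between replicates of a group the variance was 5.40 to 23.1 times that of counting alone, and 0 pairs of libraries were identical.

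The muscle covariate is the log2 of each library's percentage of counts in the muscle list. Hepatocyte scaling used the summed counts of 177 liver genes times TMM factors computed within these genes. They are the tested members of the hepatocyte, carrier protein, apolipoprotein, coagulation, complement and amino acid lists. Alternatives were DESeq2 1.42.0, limma-voom, other size factors and filters, the 8 control libraries alone, a replicate block and each control library left out. Tested on simulated data of 16665 genes with 50 changed per fold size, the comparison of control livers recovered 14%, 70%, 90% and 96% of changes of 1.5, 2, 3 and 4-fold, and 4 of 139 calls were false. The changed genes were drawn from those above a floor of counts, and all libraries were simulated with the same tissue shares. Shares were compared with exact permutation tests in Python 3.11.15 (scipy 1.17.1), 19 in one family.

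Members and the 50 gene lists (2293 names, 2099 genes matched) were chosen with earlier results of these data known, and list counts support nothing on their own. Genes named are the 10 largest called increases and decreases without overlap between groups (at least 5 CPM in 1 group), the called members of lists with the smallest adjusted p and a set of cell cycle and liver genes. The genes called with and without the muscle covariate, and genes cited beside a named relative, were chosen after their values were seen. Replicate numbers 1, 2 and 4 occur in both groups, but the labels do not say that they mark a shared batch. They were therefore not used as pairs. The deviations of same-numbered libraries from their group means correlated at 0.005, -0.194 and -0.084. With the muscle covariate taken out the correlations were 0.044, 0.346 and 0.085, and that for number 2 was the highest of all combinations. Whether the numbers mark a batch was not tested. Results of some genes are not reported here.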

Additional observations from a re-analysis of the deposited data

Results flagged for a closer look

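The effect of palbociclib differed between control and mutant livers for 340 genes by the interaction term of the edgeR fit (adjusted p below 0.05). Of these, 297 were more negative in the controls. Among the genes named in the report that were called in this test, the difference (control minus mutant effect, log2) was negative for nearly all. Most of these genes were named because they were called lower in the controls. That effect is part of the difference, so the choice of genes favors a negative sign, and their shared sign supports nothing on its own. Named genes without such a call are not listed here. In lipid metabolism it was -0.83 for ACACB, -0.79 for ACADM, -0.57 for ACADVL, -0.77 for HSD17B4, -0.99 for CPT2, -0.94 for SLC25A20, -3.44 for apobb.2 and -1.53 for CETP. Among secreted proteins and their kin the differences were -1.62 for GC, -1.84 for ahsg1, -3.08 for ces3, -1.44 for fetub, -1.43 for RBP4 and -1.44 for fabp10a. Clotting and complement genes gave -1.81 for F7_075827, -1.15 for F10, -1.22 for MASP1, -1.70 for MASP2 and -1.43 for c3b.1. Genes of glucose and amino acid metabolism gave -1.52 for PKLR, -1.36 for SLC2A2, -1.41 for GYS2, -1.28 for PC_098766, -1.09 for PFKL_099755, -1.25 for glud1a, -0.89 for SHMT2 and -0.70 for GLDC. For enzymes of foreign compounds and bile acids the values were -2.32 for cyp2ad2, -1.32 for cyp2p8, -1.07 for gstr, -1.33 for sult1st6 and -1.15 for HSD3B7. Regulators gave -1.23 for NR5A2, -1.16 for PROX1, -1.45 for igf2b, -1.38 for stat5a, -1.49 for ghrb and -1.61 for nr5a5. The remaining negative differences were -1.12 for ANXA4, -1.71 for XDH, -1.13 for RGN, -1.46 for MAP3K10, -1.09 for ITPR1_014655, -2.03 for FAT3_087709, -1.10 for lonrf4, -0.97 for SAT1_035652 and -3.09 for cbln9. The difference was positive for hp (3.38) and kcnb2a (1.72).

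One library stood apart from the other 3 of its group in 13 of 296 groups of values examined, where chance alone would flag about 5%. DMSO replicate 2 was the outlying library for the share of carrier protein genes (3.19%), of biliary genes (0.276%), of leukocyte genes (0.0165%) and of intestine genes (0.449%), and for fabp10a (3213 CPM) and SAT1_035652 (130.1 CPM). In DMSO replicate 1 ITPR1_014655 stood at 64.8 CPM, and in DMSO replicate 4 TMOD4 at 63.9 CPM. Among palbociclib libraries abca1b (115 CPM) and hp (7.02 CPM) stood apart in replicate 5, F10 (142 CPM) in replicate 4, MATN1 (228 CPM) in replicate 2 and rnf144b (6.66 CPM) in replicate 1.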

How the results depend on the processing

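Of the 98 called genes named in the report, DESeq2's size factors and TMM factors made without muscle genes kept all 98, DESeq2's test 95 of 96, limma-voom 94 and the fit without a filter 96. Library size alone kept 88, the 8 control libraries alone 55 of 97, hepatocyte scaling 60 and the muscle covariate 18. Leaving out 1 library kept 60 to 97, and 52 were kept in all 8 such fits; the losses lay nearly always without DMSO replicates 3 or 4 or palbociclib replicates 4 or 5. Values changed sign in 6 cases: with hepatocyte scaling ACADVL (0.10), HSD17B4 (0.0413), CPT2 (0.00202), SLC25A20 (0.00566) and GLDC (0.11), and with the muscle covariate krt5 (-0.0274), none of them called. The number of called genes, 973 in all, was 1472 with library size alone (1079 higher, 393 lower), 5323 with hepatocyte scaling (5218 and 105), 351 in the 8 control libraries (37 and 314), 49 with the muscle covariate (32 and 17) and 35 with that covariate in the 8 control libraries (16 and 19). Without 1 library it ran from 272 to 2019 (31 to 608 higher, 241 to 1411 lower). The 340 differences between genotypes became 6441 with hepatocyte scaling, 615 with DESeq2, 214 with limma-voom and 195 with the muscle covariate, and 168 to 842 without 1 library. Fits on fewer libraries also have a smaller sample. The cause of these changes was not tested. Of 546 list medians 92 moved by more than the spread allowed, 25 of them with hepatocyte scaling and 23 with the covariate. The muscle and hepatocyte shares kept their direction and their side of the threshold in every setting run for them. With 1 library left out the exact permutation p cannot fall below 0.0571. Those settings therefore could not cross the threshold and say nothing on it.

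With the replicate number as a block, 264 genes were called (20 higher, 244 lower), 48 of the 98 named ones among them, and 134 differed between genotypes. In the 8 control libraries alone the block left 1 gene (0 higher, 1 lower). The numbers are not known to pair the libraries, so a call lost with the block is not a sign of a smaller effect.

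Depth limits low genes most: hp rests on 4 counts under DMSO and 43 under palbociclib.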
